A study of Mus musculus with 8 samples.

Results

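The genes described here carry the symbols of mitochondrial ribosomal proteins and were measured by RNA sequencing in splenic CD8+ T cells, the cytotoxic lineage of T lymphocytes. Members were taken by symbol, as every listed gene whose name opens with *Mrpl* or *Mrps* and a number, with pseudogene symbols left out, which gave 77 of the 48321 gene symbols in the count tables. Of these, 48 carry a large subunit name (*Mrpl*) and 29 a small subunit name (*Mrps*), and 76 passed the filter on low counts. The cells came from the spleens of C57BL/6 mice of a line with floxed *Satb1* alleles and *E8I-cre*, which drives Cre recombinase once cells have matured along the CD8 lineage. SATB1 is a DNA-binding protein that organises chromatin in T cells. Sample titles name each library as WT or KO and as day 0 (before culture) or day 5 (cultured), with 2 libraries in each of the 4 groups: day 0 WT, day 0 KO, day 5 WT and day 5 KO. The study's general methods describe young adult mice of mixed sexes. Whether the WT mice carried the transgene or the floxed alleles, the ages of the animals behind each library, and whether the libraries of a group came from different animals are not given in the sources used here. The stimulus used for the day 5 cells is also not given for these libraries, although the study's general protocol stimulates T cells through CD3 and CD28 and then keeps them in IL-2, or, for an exhaustion condition, prolongs the CD3 and CD28 stimulation with IL-2 added. P-values therefore measure only the spread between these libraries, which may be technical.

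Mitochondria carry their own ribosome, which translates the few messages encoded by the mitochondrial genome, all of them for subunits of the respiratory chain and the ATP synthase. Its RNA comes from the mitochondrial genome, whereas all of its proteins are encoded in the nucleus, made in the cytosol and imported. Many of these proteins descend from bacterial ribosomal proteins and others are found only in mitochondria. Naive T cells hold few and small mitochondria, and activation is known to bring growth of the mitochondrial compartment before and during division.

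Gene counts per library ranged from 4170126 to 11117971. *Satb1* did not follow the labels at day 0, where it was at 97.8 and 91.6 CPM (counts scaled to the library size) in the WT libraries and at 144 and 125 CPM in those labelled KO (log2 fold change 0.51, edgeR FDR = 0.125). At day 5 it was at 96.5 and 116 CPM in WT and at 56.5 and 62.3 CPM in the libraries labelled KO (log2 fold change -0.84, edgeR FDR = 0.0162). Genotypes are for this reason named only as the libraries are labelled. The 4 CD8 T cell markers *Cd3e*, *Cd8a*, *Cd8b1* and *Trac* summed to between 8439 and 8927 CPM at day 0 and between 4300 and 5267 CPM at day 5. Summed markers of B cells lay between 67.4 and 167 CPM, of myeloid cells between 12.4 and 73.6 CPM, of NK cells between 10.7 and 54.2 CPM, of CD4 T cells between 0.226 and 2.998 CPM and of erythroid cells between 0 and 0.904 CPM. B cell markers were lower at day 5 (67.4 to 84.5 CPM) than at day 0 (123 to 167 CPM), whereas the myeloid and NK sums were higher. Only 1 of the 5 B cell markers passed the low-count filter, and it fell with culture in both genotypes. The myeloid sum was carried by *Cd68*, which rose, while *Csf1r* fell in both genotypes and *Itgam* fell in WT, and the NK sum was carried by *Eomes*, a factor that CD8 T cells also express. In the day 5 WT libraries *Ms4a1* was at 0 in both, as were *Lyz2*, *C1qa* and *Ncr1* in the day 5 KO libraries. The part of these markers in the differences between days or between genotypes was not tested.

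The promoters of 3 members are shown first, because these genes rose with culture in both genotypes and kept their calls under every processing alternative tried, and because their promoters hold a stretch free of annotated exons with a searched motif. They were chosen after their values were seen. Sequences are from RefSeq (GRCm38.p6), read 5′ to 3′ on the strand of the gene, with the motif in capitals. The *Mrpl1* stretch lies at chr5:96209865-96210080 on the plus strand, ends 35 bases before the RefSeq start and carries the GC box read from the other strand. In the GENCODE annotation it falls inside an intron of a longer *Mrpl1* transcript. The *Mrpl17* stretch lies at chr7:105811100-105811337 on the minus strand, ends 13 bases before the start and carries the ETS motif. The *Mrps18c* stretch lies at chr5:100798599-100798626 on the plus strand, in the 28 bases between the GENCODE starts of *Mrps18c* and its head-to-head neighbour *Helq*, and carries the ETS motif read from the other strand.
Mrpl1: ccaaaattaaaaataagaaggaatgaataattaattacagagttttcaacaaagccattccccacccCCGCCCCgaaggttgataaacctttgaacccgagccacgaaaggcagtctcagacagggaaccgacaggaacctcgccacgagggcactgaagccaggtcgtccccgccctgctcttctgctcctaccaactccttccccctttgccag
Mrpl17: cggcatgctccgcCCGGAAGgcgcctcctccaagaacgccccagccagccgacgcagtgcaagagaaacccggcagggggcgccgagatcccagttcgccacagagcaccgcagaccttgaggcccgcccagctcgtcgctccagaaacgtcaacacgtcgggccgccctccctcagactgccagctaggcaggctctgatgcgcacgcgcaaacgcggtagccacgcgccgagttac
Mrps18c: gtgaCTTCCGGcccgggaagcgcgggaa

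Motifs of 5 factors or boxes were searched on both strands in the 300 bases from 250 before to 50 after each RefSeq start, in 74 promoters of 68 members and in 32851 promoters in all, and none of the motifs contains another. The ETS motif CCGGAAG was present in 33.8% of member promoters and 8.86% of all promoters. For YY1, AAGATGGC, the shares were 16.2% and 2.75%, and for NRF1, a factor known to act on nuclear genes of the respiratory chain, GCGCATGC gave 10.8% and 2.71%. The GC box GGGGCGG was in 37.8% of member promoters and 23.2% of all. The E-box CACGTG, to which Myc binds, was in 9.46% and 7.15%. Genes with several starts count more than once here, and *Mrpl2* alone gives 3 of the 7 member promoters with the E-box. Counted once per gene, the E-box was in 5 of 68 members (7.35%) and 8.09% of all genes, ETS in 36.8% and 9.93%, YY1 in 17.6% and 3.19%, NRF1 in 11.8% and 3.05%, and the GC box in 35.3% and 25.5%. Outside the stretches printed above, the searched window of *Mrpl17* also held NRF1 and GC box matches, and that of *Mrps18c* an E-box. Promoter shares are descriptions, and a match is not a bound site. Members also often lay head to head with another gene: 33 of 77 (42.9%) had a protein-coding neighbour on the other strand starting within 1000 bases, against 10.9% of 21687 protein-coding genes. *Mrps11* and *Mrpl46*, of the small and the large subunit, are such a pair (overlapping at their starts, chromosome 7).

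Levels differed widely among members when expressed per kilobase of exon and averaged over the 8 libraries. The highest were *Mrpl18*, a protein of the central protuberance of the large subunit, at 263 CPM per kb, *Mrpl28* at 146, *Mrpl36* at 141, *Mrpl46* at 117 and *Mrps14* at 104 CPM per kb. The median of the 76 tested members was 29.9 CPM per kb, with quartiles of 12.5 and 54.7. The lowest tested members were *Mrpl3* at 0.765, *Mrps35* at 0.543 and *Mrps30* at 0.393 CPM per kb. Exon length here joins all annotated exons of a gene, so this order depends on the annotation. By CPM without the length, the lowest tested member was *Mrps24* at 1.37 CPM. *Mrpl53* was not tested. It had between 0 and 4 counts per library. In the GENCODE annotation 88.0% of its exon length lies in exons of genes on its own strand (*Ccdc142os* and *Gm42688*). Whether this overlap lowered its counts was not tested. In all, 10 members, *Mrpl53* included, have at least 20% of their exon length within exons of other genes, among them *Mrpl19*, *Mrpl24*, *Mrpl47*, *Mrps18b* and *Mrps18c*, and the strand setting of the counting was not stated. Their values are uncertain to that extent.

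Summed over all 77 members, transcripts were at 5826 and 5666 CPM in day 0 WT and 5250 and 5463 CPM in day 0 KO. At day 5 they were at 8453 and 7214 CPM in WT and 7444 and 7059 CPM in KO. Every day 5 library was thus above every day 0 library. The group values were 5746 ± 113, 5356 ± 151, 7834 ± 876 and 7251 ± 272 CPM (SD, n = 2), and the ratio of day 5 to day 0 was 1.36 in WT and 1.35 in KO. With plain library totals in place of the scaling factors the ratios were 1.24 and 1.19. As a share of all gene counts, the members held between 0.550% (95% Wilson interval 0.546% to 0.555%) and 0.776% (0.769% to 0.782%) of a library, intervals that cover counting error only. By symbol, large subunit genes went from 4051 ± 71.0 to 5638 ± 647 CPM in WT and stood at 3708 ± 102 and 5196 ± 171 CPM in KO. Genes with a small subunit symbol stood at 1694 ± 42.2 and 2196 ± 228 CPM in WT and at 1648 ± 49.4 and 2055 ± 101 CPM in KO. No test was run on these sums. In bulk RNA, more cells of a type and more RNA per cell cannot be told apart, and CPM give shares of the counted RNA rather than amounts per cell.

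**Figure D1:**
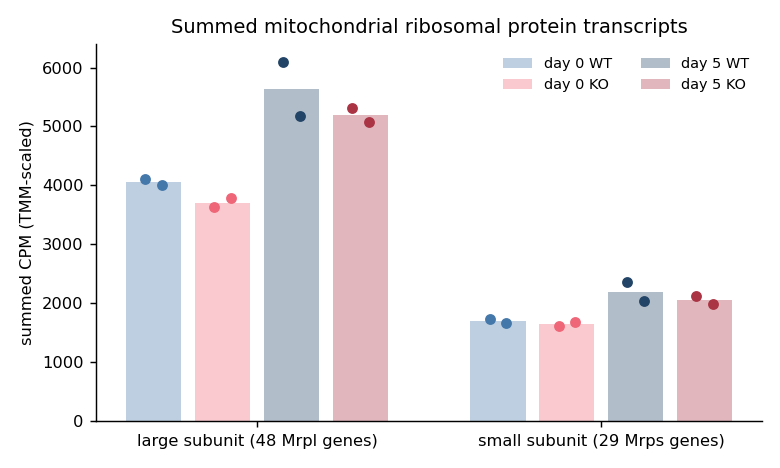
Summed CPM of large and small subunit genes, assigned by symbol. The y axis is the sum of TMM-scaled CPM, each point is 1 library, and bars are the means of the 2 libraries of a group. In both sets the 4 day 5 libraries lie above the 4 day 0 libraries, and the libraries of day 5 WT lie farthest apart.

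Between day 0 and day 5, 27 of the 76 tested members rose and 0 fell in WT, and 31 rose and 1 fell in KO. Of all 12597 genes tested, 24.7% rose and 23.6% fell in WT, and 26.2% rose and 24% fell in KO, beside shares of 35.5% and 40.8% of members that rose. The median log2 fold change of the members was 0.38 in WT and 0.36 in KO, beside -0.04 and -0.05 over all genes. Most members stayed below a doubling, and the range ran from -0.78 to 1.49 in WT and from -1.11 to 1.75 in KO. By symbol, 21 of 47 tested *Mrpl* genes rose in WT, and 25 rose and 1 fell in KO. Of the 29 *Mrps* genes 6 rose in each genotype, with *Mrps18a*, whose protein sits in the large subunit, among those in KO. Among the 48 tested proteins with a bacterial counterpart, 21 rose in WT and 22 in KO. Of the 27 found only in mitochondria, 6 rose in WT, and 9 rose and 1 fell in KO. The 1 other tested member, *Mrps36*, was in neither list. Differences between these subgroups were not tested.

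These counts depend on how gene length and base composition are treated. Members are shorter than the tested genes as a whole (median exon length 2394 against 4040 bases) and of similar GC content (50.3% against 49.3%). When GC content and exon length were corrected for in each library (the GC and length offset), 16 members rose and 7 fell in WT, and 19 rose and 10 fell in KO. Of the members, 21.1% were thus called higher and 9.21% lower in WT, beside 20.7% and 27.6% of all genes under the same correction. In KO the shares were 25% and 13.2% of the members and 22.2% and 29.3% of all genes. The share of members called higher was therefore near that of all genes, and the share called lower was below it, a difference that was not tested. By symbol, *Mrpl* genes had 13 higher against 5 lower in WT and 15 against 6 in KO, and *Mrps* genes 3 against 2 and 4 against 4. Proteins with a bacterial counterpart had 13 higher against 4 lower in WT and 15 against 6 in KO. Those found only in mitochondria had 3 against 3 in WT and 4 against 4 in KO. The correction moved the median of all genes to -0.18 and -0.19 and that of the members to 0.09 and -0.02, so relative to all genes the members' median was higher by 0.27 in WT and by 0.17 in KO, beside 0.42 and 0.40 without the offset. Scaling by library totals called 22 members higher and 1 lower in WT and 22 higher against 6 lower in KO, with a median 0.41 and 0.40 above that of all genes. With library totals, 21.2% of all genes were higher and 28.3% lower in WT, and 21.9% and 31.2% in KO. Without replicate 2 of day 0 WT, 17 members rose in WT, and without replicate 1 of day 5 KO, 21 rose in KO.

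**Figure D2:**
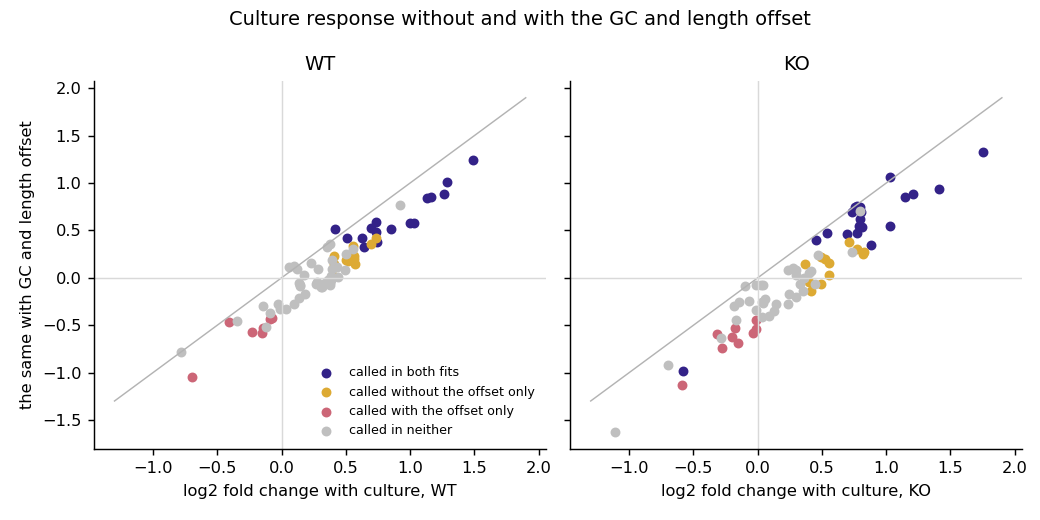
Log2 fold change of each tested member from day 0 to day 5 without (x axis) and with (y axis) the GC and length offset, in WT and KO. Each point is 1 gene and the diagonal marks equal values. Most points lie below the diagonal, and those called lower only with the offset sit at or below 0 on the x axis.

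The libraries of WT and KO used for the culture response are separate, so the lists can be set side by side. There were 22 members that rose in both, which is 81.5% of the WT list and 71.0% of the KO list. Log2 fold changes had the same sign in 60 of 76 members, with a Pearson r of 0.684 and a Spearman rho of 0.669 across these genes, which share libraries and are not independent. Over all 12597 genes tested, 2588 rose in both, which is 83.2% of the WT list and 78.5% of the KO list, and 83.7% had the same sign in both genotypes, beside 78.9% of members. The Pearson r was 0.906 and the Spearman rho 0.853 over all genes, both above the values of the members. A set of 11 members was called higher in both genotypes in the main test and under all 20 alternatives: *Mrpl1*, *Mrpl14*, *Mrpl17*, *Mrpl18*, *Mrpl19*, *Mrpl30*, *Mrpl35*, *Mrpl45*, *Mrps11*, *Mrps16* and *Mrps18c*. The 39 members called in neither genotype include the decoding centre protein gene *Mrps12* and the highly expressed *Mrpl36*, both of which were called lower in both genotypes with the GC and length offset.

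**Figure D3:**
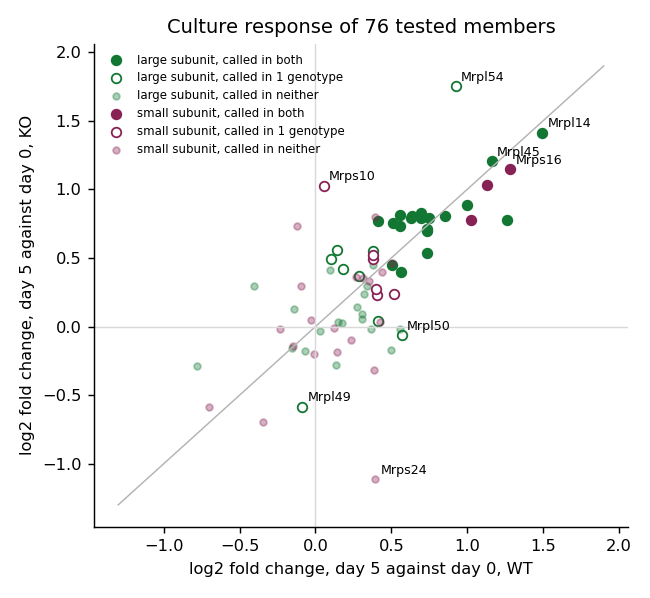
Log2 fold change from day 0 to day 5 in WT (x axis) and in the libraries labelled KO (y axis) for the 76 tested members. Colour marks the subunit by symbol, filled points were called in both genotypes, open points in 1 genotype and pale points in neither. Most points lie above 0 on both axes, with Mrpl14 the highest of those called in both, and Mrpl54 and Mrps10 lie well above the diagonal.

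The member that rose most in WT was *Mrpl14* (chromosome 17), a protein of the intersubunit face of the large subunit. It was at 38.8 and 37.8 CPM in day 0 WT, 38.7 and 38.7 in day 0 KO, 110 and 106 in day 5 WT, and 112 and 94.7 CPM in day 5 KO. Day 0 and day 5 libraries did not overlap, and the genotypes lay together at each day. Its log2 fold change was 1.49 (SE 0.15, edgeR FDR = 4.85e-06) in WT and 1.41 (SE 0.15, edgeR FDR = 5.87e-06) in KO. *Mrps16*, a small subunit protein with a bacterial counterpart, was at 81.9 and 71.5, 78.1 and 89.7, 187 and 187, and 198 and 173 CPM in the same order of libraries. It rose 2.43-fold in WT and 2.21-fold in KO (edgeR FDR = 1.07e-05 and 2.20e-05). *Mrps11*, of the platform of the small subunit, went from 53.3 and 54.7 to 133 and 104 CPM in WT and from 51.1 and 59.1 to 113 and 112 CPM in KO. All day 5 values of *Mrps16* and *Mrps11* exceeded all day 0 values. *Mrps11* rose by 1.13 (SE 0.16, edgeR FDR = 8.11e-05) and 1.03 (SE 0.16, edgeR FDR = 0.00014) on the log2 scale, while its head-to-head neighbour *Mrpl46* had 0.38 (edgeR FDR = 0.0657) in WT and rose by 0.55 (edgeR FDR = 0.0108) in KO. *Mrpl1*, whose promoter stretch is printed above, was at 62.8 and 63.5 CPM in day 0 WT and 113 and 115 CPM in day 5 WT, and at 59.3 and 50.3 against 98.6 and 93.5 CPM in KO. The groups did not overlap in either genotype, with log2 fold changes of 0.85 (edgeR FDR = 0.000328) and 0.80 (edgeR FDR = 0.000444).

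**Figure D4:**
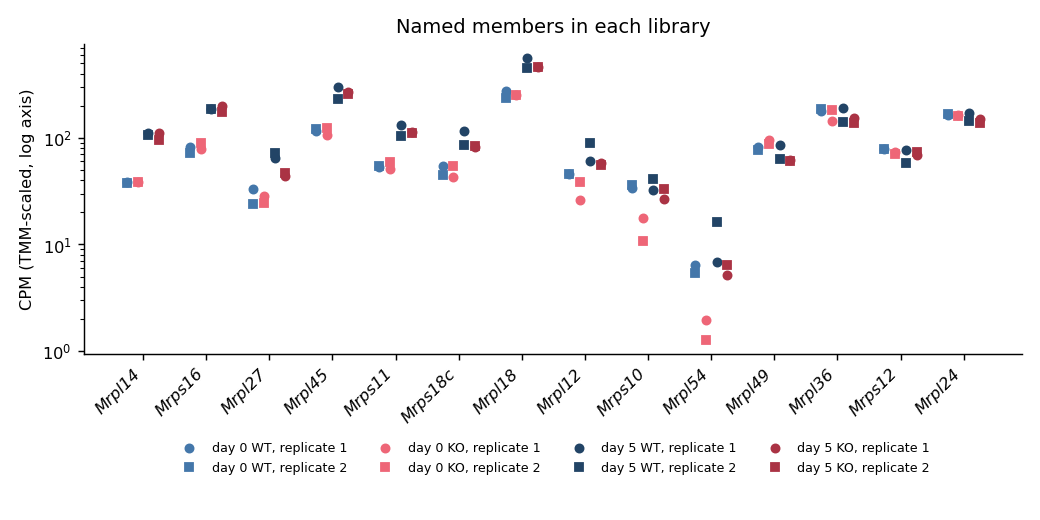
CPM of 14 members in each of the 8 libraries. The y axis is logarithmic, colour marks the group, and circles and squares mark replicates 1 and 2. From Mrpl14 to Mrpl18 the day 5 points lie above the day 0 points, Mrps10 and Mrpl54 are low in the day 0 KO libraries, and Mrpl36, Mrps12 and Mrpl24 were called lower with culture only when the GC and length offset was used.

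At the tunnel exit, where the new chain leaves the large subunit next to the inner membrane, 4 of 8 tested genes rose in each genotype. *Mrpl45*, which anchors the ribosome to the inner membrane, was at 115 and 120 CPM in day 0 WT, 107 and 123 in day 0 KO, 297 and 230 in day 5 WT, and 271 and 259 CPM in day 5 KO. No day 5 value came near the day 0 range, and the log2 fold change was 1.16 (SE 0.15, edgeR FDR = 3.27e-05) in WT and 1.21 (SE 0.14, edgeR FDR = 2.04e-05) in KO. *Mrpl17* stood at 105 and 106, 80.04 and 91.9, 195 and 146, and 144 and 154 CPM across the 4 groups, and rose by 0.69 (edgeR FDR = 0.00277) and 0.79 (edgeR FDR = 0.000984). *Mrpl39* rose by 0.74 and 0.71, calls that were lost with the GC and length offset (0.42, edgeR FDR = 0.0923, in WT). *Mrpl23* rose in WT only by call (0.41, edgeR FDR = 0.0439, against 0.04 in KO), a call that held in 9 of 20 alternatives, and the interaction was not called for it. *Mrpl47* had 0.29 (edgeR FDR = 0.102) in WT and rose by 0.37 (edgeR FDR = 0.0378) in KO, a call that held in 11 of 20 alternatives. For *Mrpl22*, *Mrpl24* and *Mrpl44*, the values were 0.36, -0.07 and -0.14 in WT and -0.02, -0.18 and 0.13 in KO, none of them called. *Mrpl24* (-0.42) and *Mrpl44* (-0.53) were called lower in WT with the GC and length offset, and *Mrpl22* (-0.44) and *Mrpl24* (-0.53) in KO.

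In the central protuberance, the top of the large subunit that meets the head of the small subunit, 4 of 8 rose in WT and 5 in KO. *Mrpl18* was at 272 and 235 CPM in day 0 WT, 251 and 250 in day 0 KO, 559 and 453 in day 5 WT, and 458 and 466 CPM in day 5 KO. Its level therefore nearly doubled in both genotypes without overlap (log2 fold change 0.996 and 0.88, edgeR FDR = 5.14e-05 and 0.000126). With the GC and length offset the log2 fold changes of *Mrpl18* were smaller, 0.58 in WT and 0.34 in KO, and both were still called. *Mrpl27*, which reaches from this region towards the peptidyl transferase centre, was at 32.9 and 23.7, 28.3 and 24.6, 65.1 and 71.6, and 44.0 and 47.2 CPM. The libraries of day 5 KO lay between the day 0 and the day 5 WT libraries. It rose by 1.26 (SE 0.19, edgeR FDR = 0.000152) in WT and by 0.78 (SE 0.19, edgeR FDR = 0.00422) in KO, the second call being lost with the GC and length offset (0.30, edgeR FDR = 0.191). *Mrpl40* and *Mrpl48* also rose in both genotypes, by 0.56 and 0.51 in WT and by 0.40 and 0.75 in KO. The KO call of *Mrpl40* held in 11 of 20 alternatives. With the GC and length offset *Mrpl40* was no longer called and stood at -0.05 in KO. *Mrpl52* did not pass the test (0.03 and -0.03), though it was called lower in KO with that offset (-0.58, edgeR FDR = 0.0223). Also not called were *Mrpl38*, which lay between 1.76 and 5.55 CPM, and *Mrps30*, a protein that carries a small subunit name but sits in the large subunit.

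Of the stalk, through which translation factors are recruited, *Mrpl12* rose by 0.70 (SE 0.22, edgeR FDR = 0.0185) in WT and by 0.83 (SE 0.22, edgeR FDR = 0.00701) in KO. It was at 46.0 and 46.1 CPM in day 0 WT, 26.3 and 38.4 in day 0 KO, 60.5 and 89.4 in day 5 WT, and 58.5 and 55.1 CPM in day 5 KO. Both calls were lost with the GC and length offset (0.36 and 0.27, edgeR FDR = 0.198 and 0.319). *Mrpl10*, the base of the stalk, had 0.38 and 0.45, and *Mrpl11* had 0.15 and 0.03, none of them called. In the decoding centre and head of the small subunit, 2 of 6 rose in WT (*Mrps9* by 0.41 and *Mrps14* by 0.40) and 1 in KO (*Mrps10*, below). *Mrps12*, which reads the codon and anticodon pair in the decoding centre, was at 79.1 and 78.9, 74.0 and 70.8, 76.4 and 57.6, and 69.4 and 73.8 CPM. Its groups overlapped between days in KO but not in WT (log2 fold change -0.23 and -0.02), and with the GC and length offset it was called lower in both (-0.58 and -0.54). *Mrps5* and *Mrps7* had values between -0.09 and 0.30 and were not called.

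The 3 *Mrps18* paralogues descend from a single bacterial protein and occupy different places in the mitochondrial ribosome, *Mrps18a* in the large subunit. They did not move alike. *Mrps18c* was at 54.2 and 44.5 CPM in day 0 WT, 42.6 and 54.7 in day 0 KO, 115 and 85.8 in day 5 WT, and 82.4 and 82.9 CPM in day 5 KO. It rose by 1.03 (SE 0.19, edgeR FDR = 0.000694) in WT and by 0.78 (SE 0.19, edgeR FDR = 0.00404) in KO, with no overlap between days. *Mrps18a* had 0.38 (edgeR FDR = 0.0525) in WT and rose by 0.49 (edgeR FDR = 0.0146) in KO. *Mrps18b* was not called (-0.01 and -0.20), and lay at 58.9 and 62.4 CPM in day 0 WT and at 71.8 and 47.7 CPM in day 5 WT, on both sides of the day 0 values. It was called lower in KO with the GC and length offset (-0.63, edgeR FDR = 0.0157). The differences between the paralogues were not tested, and *Mrps18b* and *Mrps18c* share 30.5% and 23.2% of their exon length with other genes. With the GC and length offset the KO calls of *Mrps18a*, *Mrpl46* and *Mrpl47* and the WT calls of *Mrps9* and *Mrps14* were lost (0.22, 0.03, 0.15, 0.15 and 0.02).

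Among the genes that rose in KO but not in WT by call were *Mrpl54* and *Mrps10*. *Mrpl54*, found only in mitochondria, was at 6.44 and 5.43 CPM in day 0 WT, 1.97 and 1.28 in day 0 KO, 6.88 and 16.1 in day 5 WT, and 5.15 and 6.44 CPM in day 5 KO. It rose by 1.75 (SE 0.47, edgeR FDR = 0.00806) in KO, and had 0.92 (SE 0.42, edgeR FDR = 0.0847) in WT, where the day 5 libraries lay more than a doubling apart. *Mrpl49*, a large subunit protein found only in mitochondria, was the member that fell. It was at 96.1 and 87.4 CPM in day 0 KO and 62.5 and 60.02 CPM in day 5 KO (log2 fold change -0.58, SE 0.16, edgeR FDR = 0.00945), a call lost without either day 5 KO library or without replicate 1 of day 0 KO (highest edgeR FDR 0.0793). In WT its value was -0.09. It was called lower in both genotypes with the GC and length offset (-0.43, edgeR FDR = 0.0369, in WT and -0.98 in KO).

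Between genotypes at day 0, 1 of 76 members was called, where 1.8% of all genes were. This was *Mrps10*, a protein of the head of the small subunit with a bacterial counterpart (chromosome 17). *Mrps10* was at 34.2 and 35.95 CPM in day 0 WT and at 17.7 and 10.8 CPM in the day 0 libraries labelled KO, then at 32.1 and 41.0 CPM in day 5 WT and 26.9 and 32.8 CPM in day 5 KO. The day 0 KO libraries stood below all 6 others, which lay together. The log2 fold change of KO against WT was -1.26 (SE 0.24, edgeR FDR = 0.0207) at day 0 and -0.29 (SE 0.23, edgeR FDR = 0.651) at day 5. In KO it rose by 1.03 (edgeR FDR = 0.00336) with culture, beside 0.05 in WT, and the interaction of 0.97 (SE 0.33) was not called (edgeR FDR = 0.272). The day 0 call held in 17 of 21 settings, the main one included. It was lost with replicate blocks within genotype, without replicate 2 of day 0 KO, and without either day 0 WT library (highest edgeR FDR 0.163). *Mrpl54* had a larger value of the same sign at day 0 (-1.79, SE 0.47) and was not called (edgeR FDR = 0.0919), but was called in 4 of 21 settings.

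No other member was called between genotypes. Summed marker levels also separated the genotypes. B cell markers were at 123 to 125 CPM in WT and 144 to 167 CPM in KO at day 0. At day 5 they were at 67.4 to 68.7 and 81.1 to 84.5 CPM. Only 1 of the 5 B cell markers was tested, and it was not called between genotypes (log2 fold change 0.34 at day 0 and 0.27 at day 5). At day 5 the CD8 markers were at 4300 CPM in both WT libraries and at 5257 to 5267 CPM in KO. Myeloid markers then lay at 34.9 to 41.9 CPM in WT and 52.3 to 73.6 CPM in KO, and NK markers at 48.7 to 54.2 and 37.5 to 40.8 CPM. At day 0 the median log2 fold change of KO against WT was -0.11 and 54 of 76 values were below 0, beside 6339 of 12597 over all genes. At day 5 the median was -0.13, 59 of 76 were below 0, and none was called, where 1.63% of all genes were. This lean was not particular to the members. Of 80 tested cytosolic ribosomal protein genes, 78 were below 0 at day 0 and 67 at day 5. Of 81 tested nuclear genes of the respiratory chain, 63 and 68 were. With the GC and length offset, 44 of 76 members lay at or below the median of all genes at day 0 and 54 at day 5, beside 54 and 59 without it. At an unadjusted p under 0.05, 11 members passed at day 0 and 10 at day 5, which is 14.5% and 13.2%, against 13.8% and 14.1% of all genes. DESeq2 and the edgeR exact test also called 0 members at day 5. The day 5 median rests on replicate 1 of day 5 WT: without it the median was -0.002, and without replicate 2 it was -0.24. The lowest p at day 5 belonged to *Mrpl27* (-0.58, SE 0.18, edgeR FDR = 0.152), *Mrps31* (-0.49, edgeR FDR = 0.181) and *Mrpl50* (-0.39, edgeR FDR = 0.196). *Mrps31*, found only in mitochondria, was at 46.6 and 55.7 CPM in day 5 WT and at 37.3 and 35.2 CPM in day 5 KO. *Mrpl50* was at 118 and 112 CPM against 92.3 and 83.7 CPM.

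The genotype by day interaction, which asks whether the culture response differed between genotypes, was called for 0 members by edgeR, where 0.159% of all genes were called, and 4 members passed at an unadjusted p under 0.05, which is 5.26% of the members beside 12.4% of all genes. DESeq2 called 0 as well. These 4 were *Mrpl50* (-0.63, SE 0.19, lowest edgeR FDR = 0.218), *Mrps31* (-0.70, SE 0.23), *Mrpl37* (0.70, SE 0.24) and *Mrps10*. *Mrpl50* was at 80.5 and 74.6 CPM in day 0 WT, 94.7 and 89.2 in day 0 KO, and at day 5 higher in WT than in KO as given above. *Mrpl37* was at 108 and 133, 87.3 and 77.6, 103 and 77.4, and 98.8 and 104 CPM in the 4 groups. When the GC and length offset was used, *Mrpl37* was called lower with culture in WT (-0.46) and *Mrps31* in KO (-0.59). Members with a call in 1 genotype alone, 5 in WT and 9 in KO of those that rose, are thus not shown to respond differently.

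Counts for other genes of the pathway are given beside those of the members. Of 6 mitochondrial ribosomal proteins with other symbols, 2 rose in each genotype, namely *Chchd1* (0.65 and 0.45) and *Aurkaip1* (0.39 and 0.63). Of 27 assembly and rRNA modification factors, 2 rose and 10 fell in WT, and 3 rose and 10 fell in KO, with medians of -0.25 and -0.31. *Mtg2*, a GTPase of large subunit assembly, fell from 46.7 and 45.9 to 20.6 and 13.7 CPM in WT (log2 fold change -1.41) and from 40.7 and 34.1 to 25.8 and 17.6 CPM in KO (-0.79). *Afg3l2*, a subunit of the inner membrane protease that matures *Mrpl32* protein, went the other way, from 25.04 and 25.1 to 149 and 120 CPM in WT (2.42, SE 0.19) and from 20.4 and 15.1 to 163 and 140 CPM in KO (3.07, SE 0.19). *Mrpl32* itself rose by 0.50 in WT, a call lost with the GC and length offset (0.18), and by 0.45 in KO. Among 13 translation factors, 2 rose and 1 fell in WT, and 3 rose in KO. *Gfm1*, an elongation factor, rose by 0.73 and 0.81, and *Mtrf1*, of the release factor family, by 1.17 and 0.92. With the GC and length offset the medians of the assembly factors were -0.31 and -0.52, with 1 higher against 10 lower in WT and 3 against 11 in KO. Of the 6 proteins with other symbols 0 rose and 1 fell in WT, and 1 rose and 1 fell in KO. The translation factors then had 2 higher and 5 lower in each genotype.

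Of 17 mitochondrial tRNA synthetases, 1 rose and 5 fell in WT, and 1 rose and 3 fell in KO. *Ears2* fell by 2.002 and 1.77 on the log2 scale, from between 4.55 and 6.56 CPM at day 0. *Vars2* was at -1.63 in WT, where it was called, and at -0.81 in KO, where it was not. Among 10 genes that copy and transcribe the mitochondrial genome, 1 rose and 3 fell in WT, and 1 rose and 2 fell in KO. *Polrmt*, the mitochondrial RNA polymerase, had -1.07 and -1.22, and the helicase gene *Peo1* had -1.05 and -0.64, all called. Of 15 listed genes of the mitochondrial genome, which supplies the messages this ribosome translates, 13 were tested, and of these 0 rose in either genotype, and 9 fell in WT and 10 in KO (medians -1.38 and -1.54). With the GC and length offset 10 of them fell in WT, and 8 fell and 1 was called higher in KO. The synthetases then had 1 higher and 5 lower in each genotype, and the genes that copy and transcribe the mitochondrial genome 1 higher against 4 lower in WT and 2 against 5 in KO. *mt-Cytb* was at 11020 and 9758 CPM in day 0 WT and at 2618 and 1325 CPM in day 5 WT. In KO it was at 10300 and 9379 CPM and then at 1692 and 1291 CPM, so that day 0 exceeded day 5 in every library. *mt-Atp6* fell from 11.1 and 9.50 to 3.88 and 1.21 CPM in WT, and nuclear copies of mitochondrial genes make values this low uncertain. Reads with more than 1 alignment, between 31.8% and 37.4% of the records in a library, were set aside by the counting.

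The nuclear genes of the respiratory chain rose more often than the members, with 51 of 81 higher against 2 lower in WT and 53 against 3 in KO, and medians of 0.63 and 0.60. The genes with the largest fold changes there, *Cox4i2* and *Cox6a2*, were both under 5 CPM, and *Cox4i2* had 0 counts in day 0 WT. Cytosolic ribosomal proteins rose in 16 and fell in 6 of 80 cases in WT, and rose in 26 and fell in 5 in KO (medians 0.06 and 0.22), with *Rpl7a* at 0.93 and 0.70 and *Rpl38* at 0.92 in WT and 0.33 in KO, where it was not called. With the GC and length offset these proteins turned to 4 higher against 24 lower in WT and 3 against 28 in KO, and respiratory chain genes to 35 higher against 6 lower in WT and 31 against 9 in KO. Members and lists were compared by counts only, with no test between lists.

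**Figure D5:**
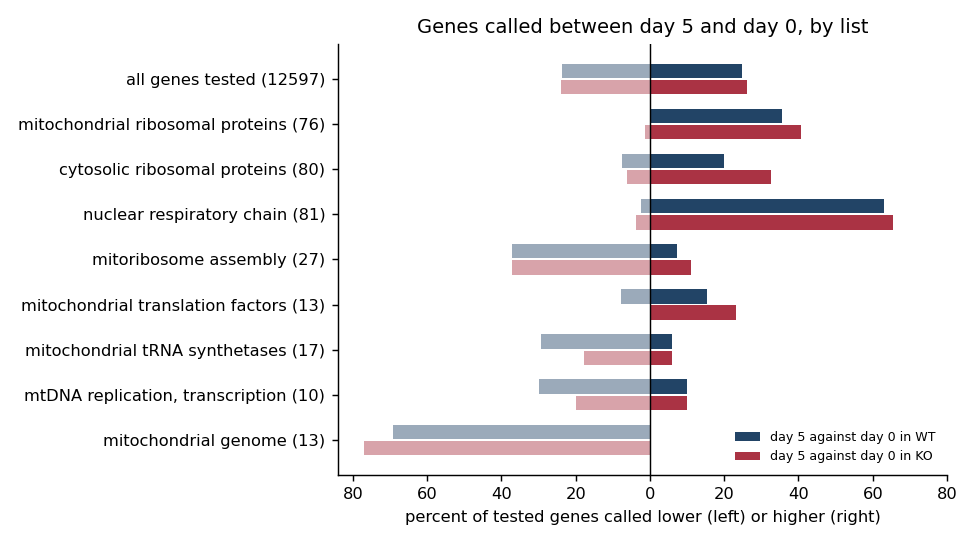
Percent of the tested genes of each list called lower (left, pale) or higher (right, dark) between day 0 and day 5, in WT and in KO, from the fit without the GC and length offset. Numbers in brackets are tested genes. Members and respiratory chain genes extend mainly to the right, and genes of the mitochondrial genome extend to the left alone.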

How the data were processed

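The authors deposited a raw count table for each of 8 libraries, with gene symbols in rows, aligned to mm10 (GRCm38) with HISAT2 2.1.0 and counted with HTSeq 0.11.1 per the submitters' processing notes. The annotation and strand setting are not given in the sources used here. Counts were neither normalized nor pooled. Groups came from the sample titles.

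Genes were tested with edgeR 4.0.16 (R 4.3.3): quasi-likelihood fit on all 8 libraries, 1 mean per group, TMM factors, default low-count filter (minimum count 10, 12597 genes), biological coefficient of variation 15.0%. P-values were two-sided and adjusted by Benjamini-Hochberg over all 12597 genes, and FDR under 0.05 was called. CPM are TMM-scaled. Genes were matched to GENCODE M21, promoters to RefSeq, and scripts were tested on simulated data. Same-numbered libraries had deviation correlations of 0.00438 (KO against WT, day 0), -0.0165 (day 5), 0.118 (WT over days) and 0.228 (KO over days), and with 2 pairs each were treated as unpaired. Replicates differed by more than sampling noise.

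Members, lists and tests were chosen with earlier results of these data known. Named members were those called between genotypes or by the interaction (or the 3 lowest p), the 6 with the largest called change in each direction with culture, the 5 highest and 3 lowest levels, the members of the structural lists and untested members, with 2 genes from each other list. Genes named beyond that rule were chosen after their values were seen. Alternatives were DESeq2 1.42.0, its size factors, library totals, no filter, at least 5 CPM in 2 libraries, the 4 libraries of a comparison, replicate blocks, the edgeR 4 form, the exact test, a GC and length offset (by loess with span 0.3, with values for 99.1% of genes), thinning to 4170126 counts, and leaving out each library.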

Additional observations from a re-analysis of the deposited data

Results flagged for a closer look

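One value outside the members was singled out because it was higher in KO than in WT at day 0 in a symbol left out of the members. This pseudogene symbol, *Mrpl23-ps1*, was tested with all genes and was at 3.58 and 3.62 CPM in day 0 WT and at 5.06 and 4.59 CPM in the day 0 libraries labelled KO, with group values of 3.598 ± 0.0286 and 4.83 ± 0.335 CPM (SD, n = 2). Its libraries did not overlap, but the difference was not called (log2 fold change 0.43, SE 0.36, edgeR FDR = 0.679), and the parent gene *Mrpl23* had -0.07 in the same comparison.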

How the results depend on the processing

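KO against WT at day 0 gave 1 called member in the main fit, 2 (*Mrps10* and *Mrpl54*, both lower) with the edgeR exact test and with no low-count filter, and 0 with replicate blocks within genotype; leaving out single libraries gave 0 to 2. The shared-number replicate block gave 1 call at day 0, 0 at day 5, 27 in WT culture and 32 in KO culture, so it changed no count. The labels tie same-numbered libraries by nothing beyond the number, and whether they share an origin is not given. At day 5 the member median ranged from -0.24 to -0.00211 with single libraries left out, and the interaction median from -0.11 to 0.0654. In WT culture, calls ranged from 17 to 35 (0 to 1 of them lower) without single libraries. With the GC and length offset 16 were higher (21.1%, beside 20.7% of all genes) and 7 lower (median 0.0893). Library totals gave a median of 0.24 and 1 lower. The 5 CPM filter and thinning each also called 1 lower. In KO culture, calls ranged from 21 to 37, with 21 to 36 higher and 0 to 1 lower. The offset gave 19 higher (25%, beside 22.2% of all genes) and 10 lower (median -0.0238) and library totals 6 lower (median 0.17). *Mrpl40* in KO turned from 0.40 to -0.0465 with the offset. Of 3915 values recomputed for the 40 tested named members, 75 lost and 40 gained a call, and 210 uncalled values changed sign. With 2 libraries per group, a left-out library leaves a lone one whose spread is assumed to be that of the other groups.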
